A study of Homo sapiens with 3 samples.

Results

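The genes that encode the stored proteins of myeloid granules were examined in THP1, a human monocytic leukaemia cell line, for 2 chromatin maps. The set held 10 of 20037 protein-coding genes on chromosomes 1 to 22, X and Y: MPO, ELANE, PRTN3, AZU1, CTSG, LYZ, LTF, CAMP, RNASE2 and RNASE3. They were chosen by name, and every peak that overlapped a gene's hg38 record or the 50 kb on either side of it was counted. All cells were wild type and had received the phorbol ester PMA for 24 h. The series has 3 samples: chromatin immunoprecipitated with an antibody to acetylated lysine 27 of histone H3 (H3K27ac), chromatin immunoprecipitated with an antibody to the deacetylase SIRT1, and an input with no antibody, whose signal was not analysed here. There was 1 library per antibody and no sample without PMA, so all values describe single libraries, with no replicate error and no test of a difference. A peak that is low because few cells carry the mark cannot be told apart from one that is low in every cell.

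Granules are membrane-bound stores of antimicrobial proteins that neutrophils, monocytes and eosinophils release or fuse with the vacuole around a microbe. Azurophil granules, which are made first, hold myeloperoxidase and the serine protease family of elastase, proteinase 3, azurocidin and cathepsin G, and their genes are used at the promyelocyte and early monocyte stage. Lactoferrin and cathelicidin belong to the later specific granules of neutrophils, lysozyme is found in several granule types and in macrophages, and the ribonucleases of RNASE2 and RNASE3 are best known from eosinophil granules. H3K27ac marks active promoters and enhancers, and SIRT1 is an NAD-dependent deacetylase of histones and other proteins.

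The bases before the start site of a gene are where its promoter lies, and those of 5 start sites are shown because they include promoters with H3K27ac, with SIRT1 and with neither. Both ribonuclease promoters lay inside an H3K27ac peak over all 250 bases, those of PRTN3 and CTSG held no peak, and 25 of the 250 bases before the third start site of LTF (base 46463654) lay in a SIRT1 peak. The sequences are from RefSeq (GRCh38.p14), written 5′ to 3′ up to the base before the start. Capitals mark matches, on either strand, to letters known from the binding motifs of myeloid transcription factors: GAGGAAG for PU.1, then TTNNGNAA for the C/EBP family, then TGTGGT for RUNX, and AACNGNC for MYB. No matches overlapped.
RNASE2 (chr14:20955237-20955486, plus strand): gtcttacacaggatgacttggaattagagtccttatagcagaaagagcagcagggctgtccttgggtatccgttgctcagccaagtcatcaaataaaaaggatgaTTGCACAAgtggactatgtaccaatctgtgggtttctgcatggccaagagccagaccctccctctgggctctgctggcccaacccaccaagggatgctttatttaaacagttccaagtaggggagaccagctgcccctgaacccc
RNASE3 (chr14:20891135-20891384, plus strand): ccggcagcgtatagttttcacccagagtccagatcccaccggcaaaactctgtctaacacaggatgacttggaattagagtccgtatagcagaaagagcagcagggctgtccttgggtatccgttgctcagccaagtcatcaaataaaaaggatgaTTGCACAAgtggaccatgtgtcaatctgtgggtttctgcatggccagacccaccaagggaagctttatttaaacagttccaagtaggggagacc
PRTN3 (chr19:840749-840998, plus strand): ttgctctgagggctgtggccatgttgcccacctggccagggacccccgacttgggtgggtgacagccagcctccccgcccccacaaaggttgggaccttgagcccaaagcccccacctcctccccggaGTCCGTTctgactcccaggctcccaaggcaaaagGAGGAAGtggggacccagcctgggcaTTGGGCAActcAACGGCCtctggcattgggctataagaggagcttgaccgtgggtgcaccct
CTSG (chr14:24576251-24576500, minus strand): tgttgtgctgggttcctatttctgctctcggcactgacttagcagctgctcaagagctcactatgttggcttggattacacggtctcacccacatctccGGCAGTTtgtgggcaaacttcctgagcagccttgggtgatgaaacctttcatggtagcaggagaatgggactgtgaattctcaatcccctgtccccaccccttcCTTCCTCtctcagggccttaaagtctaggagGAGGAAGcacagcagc
LTF (chr3:46463655-46463904, minus strand): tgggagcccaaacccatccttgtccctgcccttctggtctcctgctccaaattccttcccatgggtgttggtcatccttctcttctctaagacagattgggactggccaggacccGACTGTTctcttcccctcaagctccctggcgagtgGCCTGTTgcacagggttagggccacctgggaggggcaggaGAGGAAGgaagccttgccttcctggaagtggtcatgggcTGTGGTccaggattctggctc

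RefSeq's table held 9 start sites for 7 of the genes, and MPO, ELANE and LYZ were not among them. The PU.1 letters stood before 5 of the 9 starts, at PRTN3, CTSG, CAMP and the first and the third start of LTF, against 11.9% of 22199 promoters of the same length. CTSG had them at 2 places, 47 to 41 and 16 to 10 bases before its start, and PRTN3 at 88 to 82. None of these 5 promoter windows held an H3K27ac peak, but of all 9 windows only those of RNASE2 and RNASE3 did. How often promoters with these letters hold H3K27ac over all genes was not calculated. The C/EBP letters stood before 6 of the 9 starts, against 28.3% of all promoters, and were found at RNASE2 (145 to 138 bases before the start), RNASE3 (94 to 87), PRTN3, AZU1 and 2 starts of LTF. The MYB letters stood before 4 of the 9 starts (5985 of the 22199) and the RUNX letters before 1 (9.36%). TATAAA, the core of the TATA box, and the E-box letters CACGTG, searched in the same way, stood before 0 of the 9, against 1999 and 1637 of the 22199. Only these exact letters were counted, so near matches such as the TATAAG in the PRTN3 sequence above were not. The 9 starts are not 9 separate observations, since LTF supplied 3 and the RNASE2 and RNASE3 promoters are nearly identical. Of the 7 genes, 4 had the PU.1 letters, 5 the C/EBP letters and 4 the MYB letters. A match is a run of letters and not a measured binding site. Aligned over their 300-base windows, the RNASE2 and RNASE3 promoters were identical at 242 of 249 aligned bases, or 97.2%. The sources used here do not say how reads that map to more than 1 place were handled, so signal at one of these genes may in part belong to the other.

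Within 1 kb of a listed start site an H3K27ac peak was found at 2 of the 7 genes with one (28.6%), RNASE2 and RNASE3, against a background of 59.4% of all protein-coding genes. By either end of the record the count was 3 of 10, with ELANE added, against 56.7%. A peak overlapped the record itself at 5 of 10, against 62.4%. The granule genes are short, with a median record of 4062 bp against 24115 bp over all genes. A peak lay within 50 kb of 9 of the 10 genes, which is near the background of 83.0%, and these windows include the records.

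The neighbourhoods held a median of 6 H3K27ac peaks per gene against 3 over all genes, and peaks covered a median of 4.99% of each window against 2.42%. The highest fold in the window, the peak caller's ratio of fragments at the summit to local background, had a median of 27.7 against 22.2 over all genes. That order turned round when the summit had to lie inside the window, at 15.8 against 22.1, when 50% of the peak had to, at 15.8 against 22.1, and without peaks within 1 kb of another protein-coding gene, at 5.45 against 6.63. On the record and 1 kb around it, where genes with no peak count as 0, the median of the highest fold was 1.83 for the granule genes and 9.25 over all genes. At 9 of the 10 genes the highest peak of the window lay off the gene, and CTSG had no peak at all. The 10 windows merge into 7 separate regions, because AZU1, PRTN3 and ELANE share one and RNASE3 and RNASE2 another. The medians per gene above therefore count some peaks more than once, and the 10 genes are not 10 separate observations. By region, the highest folds were 106 (MPO), 83.1 (LTF), 61.5 (AZU1, PRTN3 and ELANE), 17.4 (RNASE3 and RNASE2), 14.3 (LYZ) and 5.59 (CAMP), with no peak for CTSG. The regions held 44 distinct H3K27ac peaks, of which 12 lay within 1 kb of another protein-coding gene. Of the 44 peaks, 7 overlapped the record of a granule gene, with folds of 3.67 to 11.4.

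**Figure D1:**
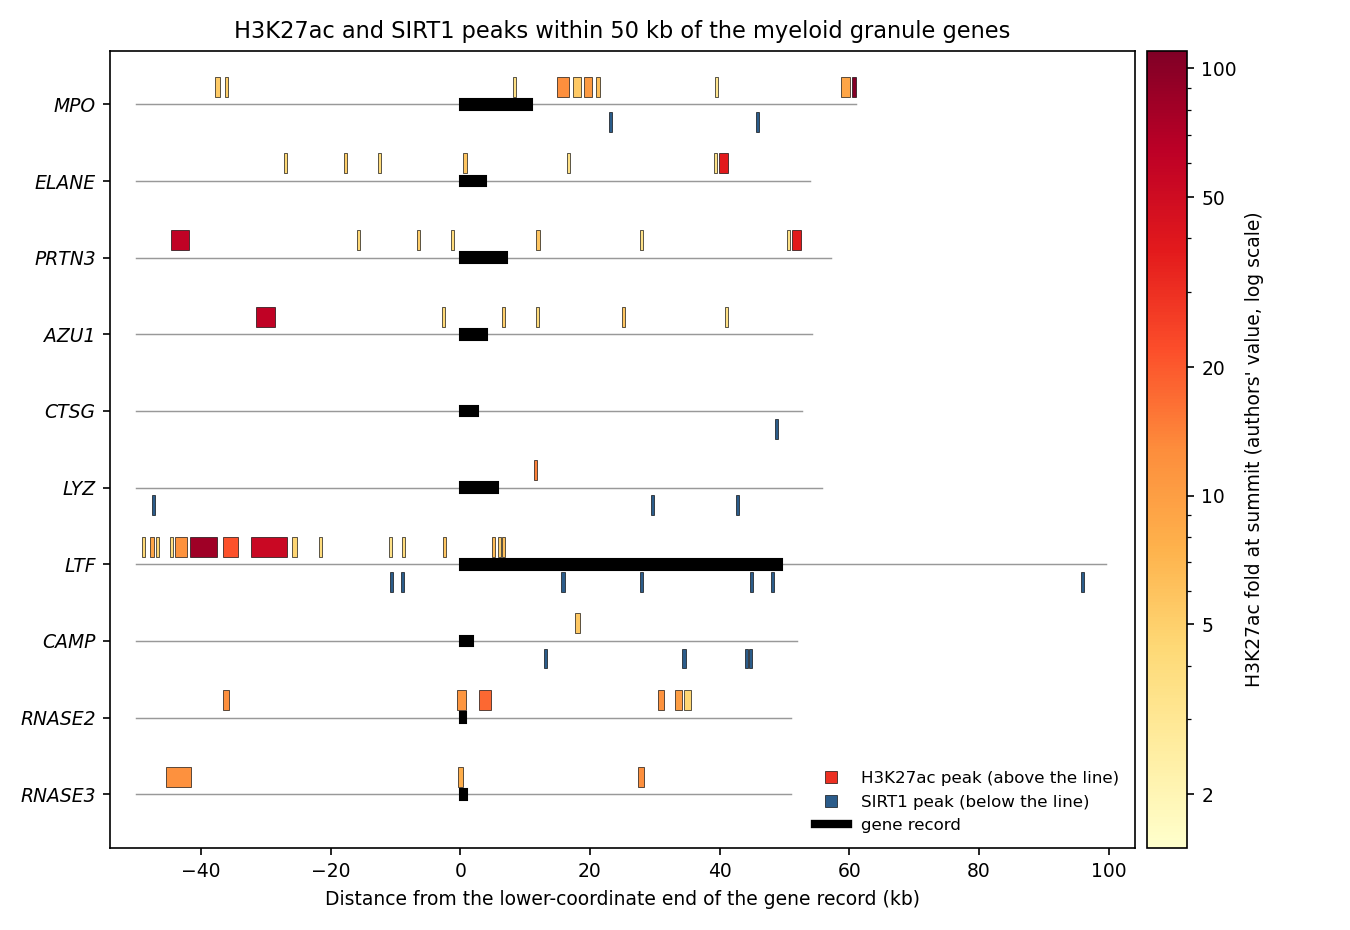
Peaks within 50 kb of each granule gene, by distance in kb from the lower-coordinate end of the gene record (black bar), with H3K27ac above each line, coloured by fold on a log scale, and SIRT1 below it. The darkest H3K27ac peaks, up to a fold of 106, lie away from the records, CTSG has no H3K27ac peak, and no SIRT1 peak is drawn for ELANE, PRTN3, AZU1, RNASE2 or RNASE3.

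MPO encodes myeloperoxidase, the haem enzyme that makes hypochlorous acid in azurophil granules (hg38 chromosome 17, 58269855 to 58280935). The peak on its record spanned 58277935 to 58278170 with a fold of 3.67 on 11 fragments (95% exact Poisson interval 5.49 to 19.7, counting error only). Of the 12510 genes with an H3K27ac peak on the record, 1.93% had a lower highest fold. Beyond the higher-coordinate end, which for this gene is the upstream side, 4 peaks stood between 58284828 and 58291352, from 3893 to 9769 bp off the record. They covered 4749 bp and had folds of 5.50 to 12.4 on 12 to 24 fragments, so each exceeded the peak on the gene in fold. The strongest peak of the window had a fold of 106 on 265 fragments, from 58330282 to 58340928. It entered the window 49347 bp from the record while its summit lay 51127 bp away, in the record of the microRNA host gene MIR142HG, and the nearest protein-coding gene was TSPOAP1. LPO, the related lactoperoxidase gene on the other side, was nearest to 2 peaks with folds of 5.34 and 5.09.

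AZU1, PRTN3 and ELANE lie side by side on chromosome 19 within 28407 bp. They encode azurocidin, a protease relative without enzymatic activity, and the elastase-like proteases proteinase 3 and neutrophil elastase. ELANE (852303 to 856243) was the one gene of the trio with a peak on its record, from 852728 to 853288, with a fold of 5.74 on 11 fragments (5.49 to 19.7). PRTN3 (840999 to 848175) had its nearest peak 1099 bp below its start, from 839573 to 839900, with a fold of 4.13 on 7 fragments (2.81 to 14.4). AZU1 (827837 to 832018) had none closer than 2316 bp, where a peak from 834334 to 834576 had a fold of 5.16 on 9 fragments (4.12 to 17.1). Of the 8 peaks in the shared region, 6 had folds of 3.48 to 5.74 on 7 to 11 fragments and were 239 to 561 bp wide. The other two stood over housekeeping neighbours: one over PTBP1, a splicing factor gene, with a fold of 61.5 on 266 fragments, and one over MED16, a Mediator subunit gene, with a fold of 38.02 on 111. CFD, the complement factor D gene, PLPPR3 and R3HDM4 also lie in these windows.

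CTSG encodes cathepsin G, a serine protease stored beside elastase, in a granzyme cluster on chromosome 14 (24573518 to 24576250). It was the one granule gene with 0 H3K27ac peaks within 50 kb. The nearest lay 130240 bp away, from 24441916 to 24443278, with a fold of 20.8 on 67 fragments. GZMH, a granzyme gene of cytotoxic lymphocytes, was the other protein-coding gene of its window.

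LYZ encodes lysozyme, which cleaves bacterial cell walls and is a usual product of monocytes and macrophages (chromosome 12, 69348381 to 69354234). No peak overlapped its record. One peak stood in its window, 5518 bp off the record from 69359752 to 69360234, with a fold of 14.3 on 41 fragments (29.4 to 55.6). That peak overlapped the lower-coordinate end of the record of YEATS4, whose product reads acetylated histones, and the next one beyond the window was 107690 bp from LYZ with a fold of 45.2.

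LTF encodes lactoferrin, the iron-binding protein of specific granules, on chromosome 3 (46435645 to 46485234, minus strand). Its window held 16 H3K27ac peaks, the most of any of the genes. On the record there were 3, with folds of 6.59, 5.16 and 6.08 on 12, 9 and 11 fragments. All 3 lay between 46440498 and 46442413, near the distal end of the gene, and the closest had its summit 21365 bp downstream of the nearest start site. None of the 3 start sites had an H3K27ac peak within 1 kb, and RTP3 and LRRC2 share the window on the start side. A further 10 peaks, on the side of the chemokine receptor relative CCRL2, covered 16559 bp between 46386493 and 46414385. Their highest fold was 83.1 on 186 fragments, 37555 bp from the LTF record.

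CAMP encodes the cathelicidin precursor of the antimicrobial peptide LL-37, also on chromosome 3 (48223495 to 48225485). No H3K27ac peak overlapped it. The one peak of its window stood 15744 bp away over ZNF589, a zinc finger gene, with a fold of 5.59 on 18 fragments (10.7 to 28.4). CDC25A, a cell cycle phosphatase gene, is the other gene that reaches into this window.

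RNASE2 and RNASE3 encode eosinophil-derived neurotoxin and eosinophil cationic protein, 63138 bp apart on chromosome 14. Of the 7 genes with a listed start site, these were the 2 with H3K27ac within 1 kb of it. MPO, ELANE and LYZ had no listed start, and the ELANE peak lay within 1 kb of an end of its record. The RNASE2 peak (20955041 to 20956404) covered the promoter shown above, with its summit 56 bp downstream of the start and a fold of 11.4 on 27 fragments (17.8 to 39.3). The RNASE3 peak (20890997 to 20891730) had its summit 109 bp downstream of the start, with a fold of 8.11 on 15 fragments (8.40 to 24.7). The intervals overlap, a difference between the counts was not tested, and no order of these genes is drawn from them. Among the 9406 genes with a peak at a start site, whose median highest fold was 19.2, a lower fold was found for 28.9% in the case of RNASE2 and 17.6% in that of RNASE3. The highest fold of the pair's region was 17.4 on 35 fragments, 1902 bp beyond RNASE2, from 20958338 to 20960249. Between the genes, a peak with a fold of 12.6 on 28 fragments lay over the pseudogene RNASE2CP, and 41607 bp below RNASE3 stood one of 3808 bp with a fold of 12.2 on 27. METTL17, a gene of mitochondrial translation that shares the RNASE2 window with the zinc transporter gene SLC39A2, was nearest to 3 peaks with folds of 11.9, 10.3 and 4.59.

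**Figure D2:**
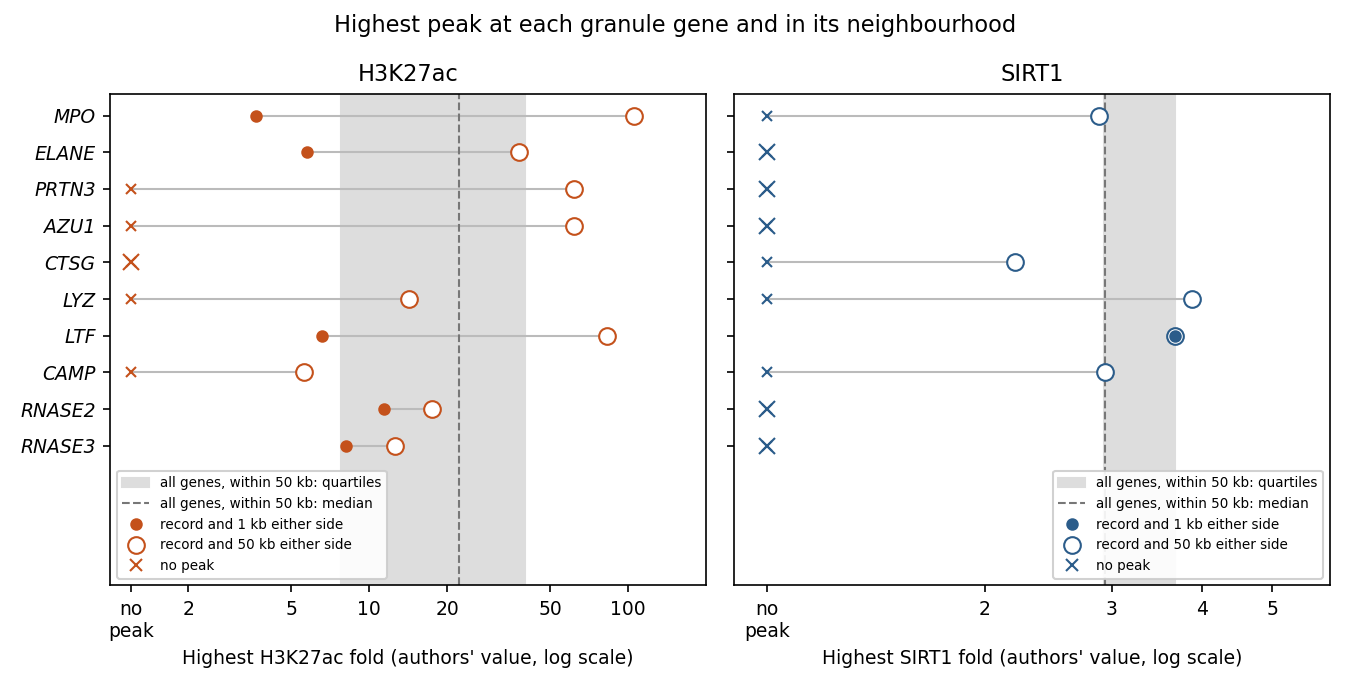
Highest fold at each gene, on the authors' scale and a log axis, on the record and 1 kb either side (filled) and with 50 kb either side (open), for H3K27ac (left) and SIRT1 (right); crosses mark no peak, and the grey band and dashed line give the quartiles and median of all genes for the 50 kb windows. For H3K27ac the filled points reach 11.4 at most while open points reach 106; for SIRT1 only LTF has a filled point, at 3.67.

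SIRT1 peaks were unevenly spread around these genes. LTF, CAMP and LYZ had 4.68, 3.92 and 2.83 per 100 kb of window, against a median of 2.74 over all genes. MPO and CTSG had 1.80 and 0.973, and the rest had none. A SIRT1 peak lay within 50 kb of 5 of the 10, against a background of 92.7% of all protein-coding genes. The 5 genes without one, ELANE, PRTN3, AZU1, RNASE2 and RNASE3, form 2 regions, so they are not 5 separate observations. The nearest SIRT1 peak lay 112690 bp from AZU1, 125852 bp from PRTN3 and 137156 bp from ELANE, and was the same peak for all 3. It lay 131556 bp from RNASE2 and 82172 bp from RNASE3. The remaining regions held 17 SIRT1 peaks, on 2 fragments in 8 cases, on 3 in 6 and on 4 or 5 in 3. None reached a q of 0.05, and the highest −log10 q was 0.294, so each of these peaks rests on a count that the peak caller did not separate from background after correction. SIRT1 folds are relative to that library's own background and are not set against H3K27ac folds.

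LTF was the one granule gene with SIRT1 on its record (1 of 10, against 50.7% of all genes) and at a start site (1 of 7, against 5.11%). On the record, 4 SIRT1 peaks had folds of 2.78, 3.67, 2.20 and 2.20 on 3, 4, 2 and 2 fragments. The one with 4 fragments (1.09 to 10.2) spanned 46463360 to 46463679, over the third start site of LTF, whose preceding bases are printed above, with its summit 227 bp downstream. LTF is also the longest record of the set, at 49590 bp. The share over all genes on the record was not matched for length, with a median record of 24115 bp against 4062 bp for the granule genes. Nor was the share at a start site matched for the number of listed starts, of which LTF has 3 and each other granule gene with any has 1. At the ends of the records 0 of the 10 genes had a SIRT1 peak, against 10.8% of all genes.

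Elsewhere the strongest SIRT1 peak of each window lay off the granule gene. Near LYZ it was inside YEATS4, from 69390974 to 69391295, with a fold of 3.87 on 5 fragments (1.62 to 11.7). Near MPO it was 11894 bp off the record, with TSPOAP1 as the nearest gene and a fold of 2.88 on 3 fragments. Near CAMP it was inside ZNF589, with a fold of 2.94 on 3. The one SIRT1 peak in the CTSG window, with 2 fragments, had the granzyme gene GZMB nearest to it.

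SIRT1 and H3K27ac peaks overlapped at 2 places, both in the LTF window, so 1 of 10 genes had such an overlap within 50 kb, against 6.61% of all genes. The first ran from 46424740 to 46424854, between an H3K27ac peak with 6 fragments and a SIRT1 peak with 4. The other shared 144 bp, from 46426631 to 46426774, with 7 and 2 fragments, and both peaks had their summit at base 46426658. Both places lay beyond the distal end of LTF, 8779 to 10791 bp off the record, and held low H3K27ac peaks with folds of 3.55 and 4.13. The H3K27ac peaks at RNASE2, RNASE3 and ELANE had no SIRT1 peak over them.

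**Figure D3:**
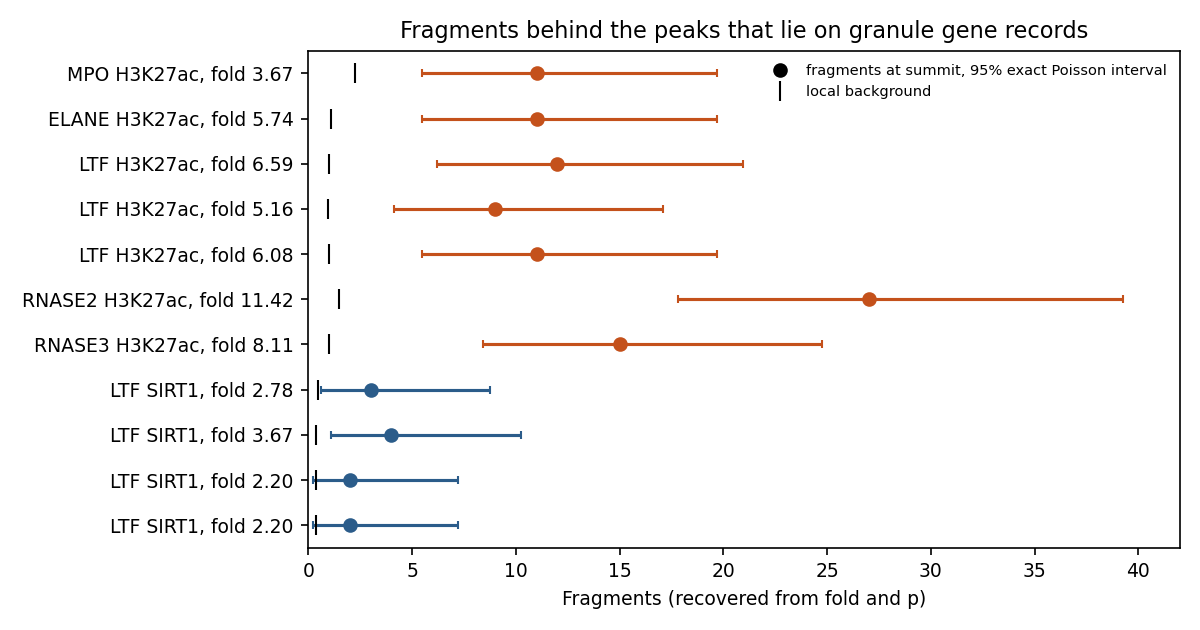
Fragments at the summit of the 7 H3K27ac and 4 SIRT1 peaks that lie on a granule gene record, with 95% exact Poisson intervals as error bars and the local background as a tick. The H3K27ac peaks stand on 9 to 27 fragments and the SIRT1 peaks, all on LTF, on 2 to 4.

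Other genes of granule biology were read in the same way, counting a peak on the record or 1 kb either side. The granule genes had H3K27ac there in 5 of 10 cases, 22 other granule genes in 8, and all protein-coding genes in 64.5%. The 8 with a peak were led by CD63, a tetraspanin of granule and lysosome membranes, at a fold of 63.8, by the gelatinase MMP9 at 34.2 and by CHI3L1 at 33.3. CTSC, whose product activates the granule serine proteases, had 32.1, and SRGN, the proteoglycan that packs granule proteins, 22.97. The metalloprotease gene MMP25 had 21.4, PRG3, an eosinophil granule gene related to PRG2, 6.196, and BPI, whose product binds bacterial lipopolysaccharide, 4.27. The 14 without a peak were PRSS57, LCN2, CRISP3, OLFM4, MMP8, PTX3, TCN1, SLPI, HP, ARG1, FCN1, EPX, PRG2 and CLC. In the ribonuclease A cluster 5 of 11 genes had one. RNASE4 and ANG, which share it, had 25.9, RNASE6 10.1, RNASE13 4.95 and RNASE1 4.65. A SIRT1 peak was found at 0 of the 11, against 52.7% of all genes. These 11 genes share a cluster and are not 11 separate observations, and the share was not matched for record length.

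Transcription factor genes known to act on granule genes had H3K27ac in 10 of 11 cases. The highest folds were 117 at RUNX1, 109 at SPI1, which encodes PU.1, and 92.2 at CEBPB. CEBPE, a factor of the specific granule stage, had 4.75, IRF8, a monocyte factor, 6.78, and GATA1 was the one without a peak. Lysosomal genes, whose products share sorting routes with granule proteins, had H3K27ac in 20 of 20 cases, with TPP1, CTSH and CTSZ highest at 81.4, 45.0 and 44.1. The median highest fold, with genes without a peak at 0, was 1.83 for the granule genes, 0 for the other granule genes, 0 for the ribonuclease A cluster, 22.9 for the regulators, 21.9 for the lysosomal genes and 9.25 over all genes. No test of these differences could be made with 1 library.

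SIRT1 peaks on the record or 1 kb around it were found at 1 of 10 granule genes, 7 of 22 other granule genes, 4 of 11 regulators and 9 of 20 lysosomal genes, against 52.7% of all genes. These shares were not matched for record length. The highest folds were 3.87 at CTSC, 3.67 at LTF and also at HEXA, a lysosomal hexosaminidase subunit gene, and 3.59 at IRF8.

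**Figure D4:**
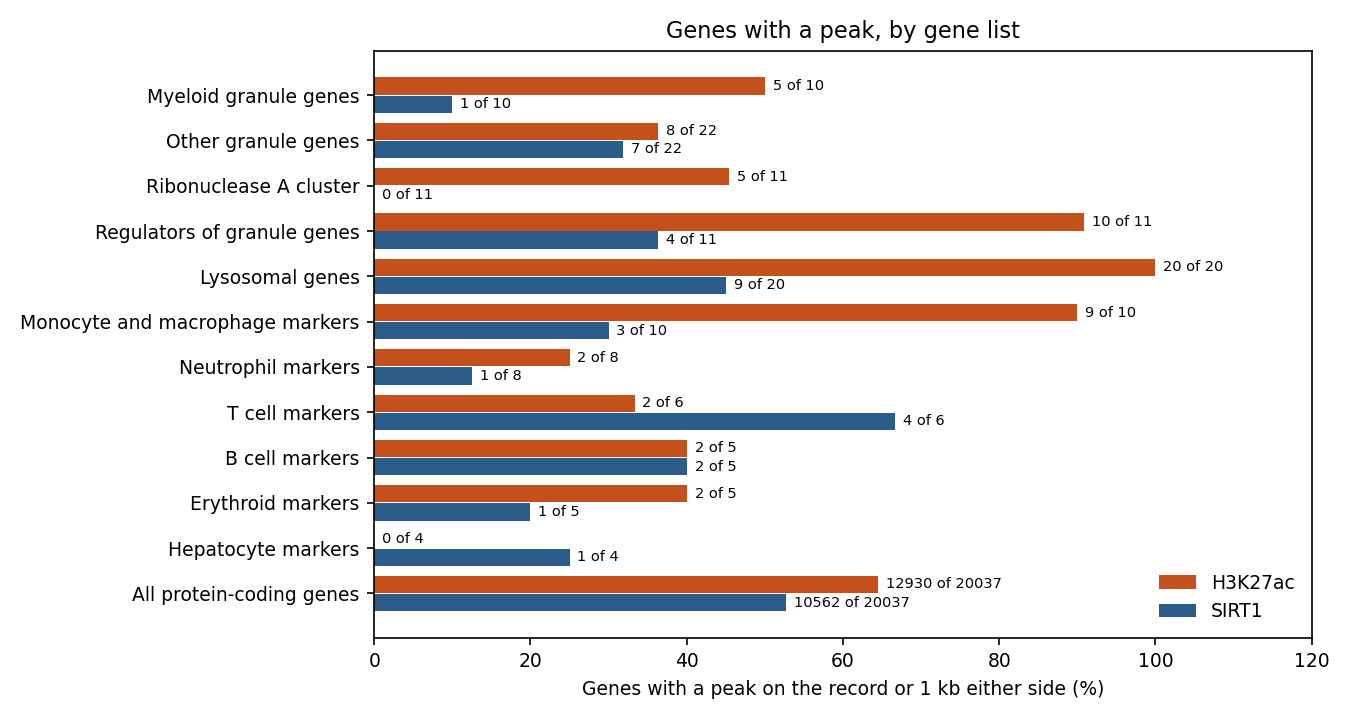
Share of genes, in percent, with an H3K27ac or SIRT1 peak on the record or 1 kb either side, by gene list, with the counts beside the bars. For H3K27ac the granule genes stand at 5 of 10, the other granule genes at 8 of 22, the ribonuclease A cluster at 5 of 11 and the lysosomal genes at 20 of 20; for SIRT1 the granule genes stand at 1 of 10 and the ribonuclease A cluster at 0 of 11. The shares are not matched for record length, and neighbouring genes of a cluster are not separate observations.

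The markers of the cells were compared with the label. H3K27ac was found at 9 of 10 monocyte and macrophage genes, led by CSF1R at a fold of 116, with MRC1 the exception. It was found at 2 of 8 neutrophil genes (CSF3R at 15.3 and S100A9 at 4.92). The T cell list had it at 2 of 6 (CD5 at 17.4 and LCK at 5.07). The B cell list had it at 2 of 5 (CD79A at 6.96 and PAX5 at 5.66). The erythroid list had it at 2 of 5 (KLF1 at 8.92 and ALAS2 at 5.16) and the hepatocyte list at 0 of 4. Over all protein-coding genes the share, on the record or 1 kb either side, was 64.5%. The H3K27ac list held 50268 peaks with a median of 15 fragments at the summit. The SIRT1 list held 96805 with a median of 3, of which 144 reached a q of 0.05. The sources used here give no read totals.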

How the data were processed

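Peak lists of 2 libraries from PMA-treated THP1 cells were used, 1 per antibody. The submitters' processing notes name hg38, MACS2 and deepTools; the aligner, the control and all versions are not given in these sources. The fold, a ratio to local background, was deposited by the authors, as were −log10 q and −log10 p. The score deposited by the authors was not used. Fragments and background at each summit were recovered from the fold (1 added to numerator and denominator) and the Poisson tail behind p, with 1 solution for 99.98% of H3K27ac and 99.998% of SIRT1 peaks. On simulated peaks tested the same way the true number came back for 100% of both kinds, 972 modelled on H3K27ac and 932 on SIRT1. These peaks were made with the same formula that was inverted, so the result checks the calculation only. It does not show how the deposited values were made, and the simulated counts did not reach the highest ones reported here. Records were those of RefSeq's protein-coding genes. An overlap needed 1 shared base. Start sites came from RefSeq's promoter table, which matched 15843 of 20037 genes; using it for starts and either record end for all 10 genes was decided with the files at hand. The members, lists, motifs and alternatives were chosen with earlier results of these data known. Named were all 10 genes, the genes nearest the strongest peak of each window, up to 3 highest genes per list, and exceptions of 5 or fewer; CEBPE and the rest of the 22 other granule genes were added after their values were seen. Intervals are 95% exact Poisson intervals and cover counting error only. Versions were Python 3.11.15 with scipy 1.17.1, numpy 2.4.6, matplotlib 3.10.9 and pandas 2.3.3.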

Additional observations from a re-analysis of the deposited data

How the results depend on the processing

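Of 82 recalculations over 12 settings, 47 stayed within 1.5 times the reported value and 35 did not, 31 of them lower and 4 higher. Part of this was fixed in advance, so the tally does not measure robustness. No SIRT1 peak in the windows exceeded a fold of 3.87 or a −log10 q of 0.294, so filters above these left none. Peak counts also change with window width. The counts of granule genes with H3K27ac on the record, at a start and within 50 kb stayed within 1.5 times in every setting run for them. They ran from 4 to 5, from 2 to 3 and from 7 to 9. The move from 2 to 3 at a start lies on the limit of 1.5 times. Of these settings, the share over all genes was calculated only for either end of the record. The number of H3K27ac peaks, 44 as reported, was 18 with windows of 10 kb and 79 with 100 kb. The median highest H3K27ac fold, 27.7 as reported, was 6.17 with 10 kb and 50.5 with 100 kb, 15.8 when the summit or 50% of the peak had to lie inside, and 5.45 without peaks within 1 kb of another protein-coding gene. The medians over all genes under the last 3 of these settings stand in the report. Values over all genes were not calculated for windows of 10 kb and 100 kb.

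The SIRT1 results rest on few fragments. With a −log10 q of at least 5, with a fold of at least 4 and with a q of at most 0.05, no SIRT1 peak was left in the windows, so the granule genes with SIRT1 on the record, at a start, within 50 kb and overlapping H3K27ac all numbered 0, with 0 peaks and a median fold of 0. With at least 4 fragments, 2 genes, 3 peaks and a median of 0 were left, against 5 genes, 17 peaks and 1.10 as reported. Windows of 10 kb gave 1 gene, 5 peaks and a median of 0, and 100 kb gave 31 peaks and a median of 2.54. Values over all genes were not calculated for these SIRT1 settings. Without peaks near other genes 10 SIRT1 peaks were left. By either end of the record, a setting chosen after seeing the data, 0 genes had SIRT1 at an end, since the SIRT1 peak of LTF lies at an inner start. No paired analysis was possible because there is 1 library per antibody and no groups of replicates.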
